A study of Homo sapiens with 5 samples.

Results

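The 39 genes described here are those named on the arrays among thrombospondins, matrix metalloproteinases (MMPs), tissue inhibitors of metalloproteinases (TIMPs), lysyl oxidases, astacin proteases and collagens, together with PXDN and RELN, out of 14812 genes measured in all. They were chosen by symbol, with earlier results of these data known, leaving out antisense transcripts and genes of chromosome 21. Each gene has 1 probe set, the one with the highest mean log2 value. The same choice also asked for integrins, laminins and all collagens, but 0 integrin genes and 0 laminin genes had a named probe set, and COL26A1 was the 1 collagen. The genes are therefore called matrix and matrix protease genes, and integrins, laminins and the other collagens were not analysed here. They fall into 7 families with 20 MMPs, 5 lysyl oxidases, 4 thrombospondins, 4 TIMPs, 3 astacin proteases, 1 collagen, and PXDN and RELN as a last pair.

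The samples came from LNCaP, an established and androgen-sensitive cell line of human prostate cancer. There were 3 arrays of cells carrying a retroviral short hairpin RNA against RB1 (shRB) and 2 arrays of cells carrying a scrambled hairpin (shControl). Both populations had been selected with puromycin and both had received 10 Gy of ionizing radiation, and RNA was taken 24 h later. Every comparison is therefore between irradiated cells with and without RB1 depletion in 1 cell line, and unirradiated cells were not analysed here. Whether the arrays of a group stand for separate cultures is not in the labels. The p-values therefore reflect the spread among the 5 arrays alone, and that spread may be technical.

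Secreted collagens and glycoproteins form the scaffold around cells. Fibrillar collagens leave the cell as procollagens, astacin proteases of the BMP1 and tolloid kind cut off their C-propeptides, and lysyl oxidases then cross-link the fibres. MMPs degrade matrix proteins and are held in check by TIMPs, while thrombospondins are matricellular glycoproteins that adjust how cells attach to the scaffold and respond to growth factors. In the prostate the gland epithelium rests on a basement membrane, and matrix proteases are studied there for their part in invasion.

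The array medians of the deposited intensities lay between 27.4 and 28.0 in shRB and were 26.6 and 28.1 in shControl. Over all genes the shControl arrays correlated with each other at 0.9665 and the shRB arrays at 0.983 to 0.9861. Arrays of different groups correlated at 0.9548 to 0.9701, so the shControl arrays were no more alike than arrays across groups. No value lay below 16 (4 on the log2 scale). Next to 16 lay 4.562% of the values of shControl replicate 1, 2.735% of shControl replicate 2, and 1.984% to 2.692% in shRB. If 16 was added to every value, log2 differences of dim genes understate their size. RB1 itself, the target of the hairpin, had log2 intensities of 5.16, 5.28 and 5.20 in shRB and 5.81 and 5.70 in shControl. The groups did not overlap, and the log2 difference of -0.54 (SE 0.14) did not pass the test over all genes (adjusted p = 0.0967). Of 8 listed prostate luminal markers, 4 were measured, with mean log2 intensities over the arrays from 7.64 to 10.1, and 0 of them passed the test or had an unadjusted p under 0.05. The measured fibroblast markers, 3 of 6 listed, stood between 4.35 and 4.89, and the measured blood markers, 2 of 5, between 4.42 and 4.61. The measured basal markers, 3 of 4, stood between 4.84 and 5.26 and the endothelial ones, 3 of 5, between 4.37 and 5.87, and 0 markers of these 4 cell types passed. An unadjusted p under 0.05 by limma was seen for 1 basal marker, KRT15 (-0.40), and 2 endothelial markers, VWF (-0.65) and EMCN (0.56). Such a p was seen for 18.1% of all genes, and the part of these markers in the results was not tested.

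Matrix genes changed in both directions in shRB cells. TLL1, THBS1, PXDN and RELN fell, and THBS3 and MMP15 rose. These 6 of 39 genes (15.4%) passed limma's test at an adjusted p under 0.05, where 1.07% of all genes tested did. The list was drawn up with earlier results of these data known and asked for PXDN and RELN by name. The shares are therefore not an unbiased comparison. Higher in shRB were 2 matrix genes, where 0.695% of all genes were, and lower were 4, where 0.378% of all genes were. The other 33 matrix genes did not pass, 6 of them had an unadjusted p under 0.05, and their log2 differences ran from -0.57 to 0.46.

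The 39 log2 differences had a median of 0.01, with 22 positive and 17 negative, against a median of 0.02 over all genes. In at least 1 of the 12 alternative fits 13 of the 39 turned sign, none of them a gene past the threshold. The median of the 39 was -0.02 after quantile normalization and -0.00 with array medians subtracted. Their median size without sign was 0.30, against 0.18 over all genes. The arrays of the groups did not overlap for 17 of the 39 genes (43.6%), against 36% of all genes. At an unadjusted p under 0.05 by limma there were 12 matrix genes (30.8%), against 18.1% of all genes. These counts describe the 39 genes and were not tested as a set. In these bulk RNA samples, fewer cells with a transcript and less of it per cell cannot be told apart.

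**Figure D1:**
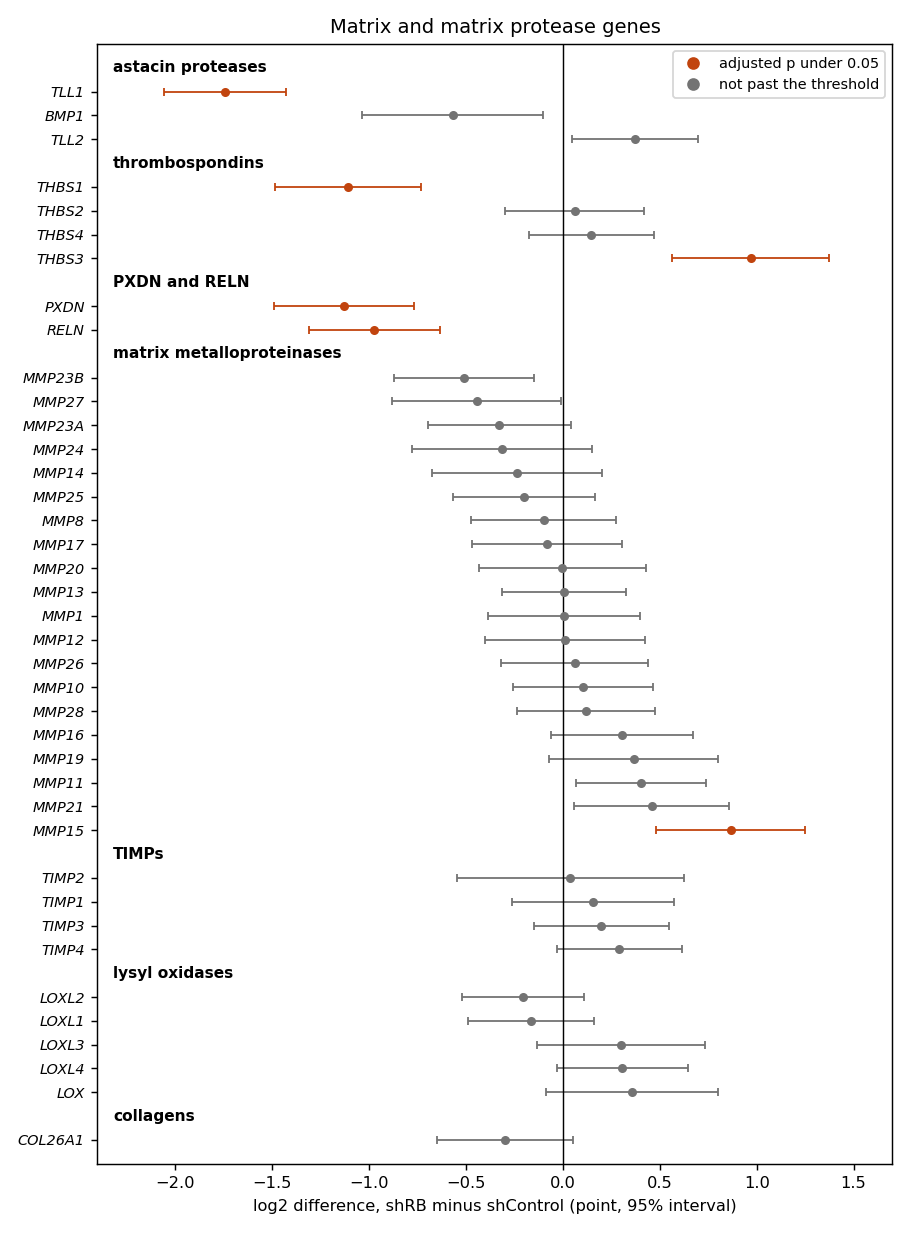
Log2 difference (x axis, shRB minus shControl, log2 units) of each of the 39 matrix and matrix protease genes, by family, as points with 95% intervals from limma. Red marks the 6 genes past the threshold, TLL1, THBS1, PXDN and RELN to the left of 0 and THBS3 and MMP15 to the right.

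Most matrix genes gave dim signals in these prostate cells. Of the 39, 26 had a mean log2 intensity below that of the median gene (5.25), and 0 of these 26 passed limma's test, where 0.446% of all genes below the median did. An unadjusted p under 0.05 was seen for 5 of the 26 (19.2%), against 12.9% of all such genes. The 6 genes that passed were among the other 13, where 1.7% of all genes at or above the median passed. That place is partly set by the change itself, since PXDN, RELN and THBS3 reach the median gene only through the group in which they are high. Near the floor, within 0.5 of 16 on the linear scale, lay 8 of the 195 matrix gene values (4.1%), against 2.05% of all gene values. Intensities of different probe sets are not amounts of transcript, and the files used here give no detection call. For the dim genes the data therefore set only the size of difference that was seen, not whether the gene is expressed.

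**Figure D2:**
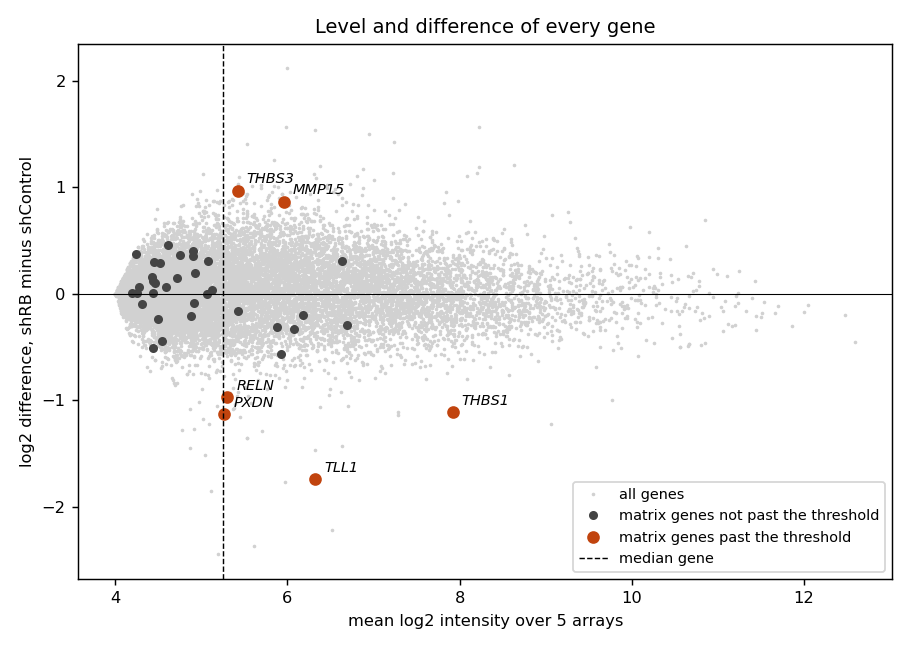
Log2 difference (y axis, shRB minus shControl) against mean log2 intensity over the 5 arrays (x axis) for all 14812 genes (grey), with the matrix genes in black and those past the threshold in red. The 6 red points lie at or to the right of the dashed line at the median gene (5.25).

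TLL1, tolloid-like 1, an astacin metalloprotease that cuts procollagens and the BMP antagonist chordin, showed the largest difference of the 39 genes. Its log2 intensities were 5.65, 5.58 and 5.65 in shRB and 7.40 and 7.34 in shControl. All 3 shRB arrays lay far below both shControl arrays, and arrays of the same group were nearly equal. It averaged 5.63 ± 0.04 in shRB cells (SD, n = 3) against 7.37 ± 0.04 in shControl cells (SD, n = 2). TLL1 thus fell by 1.74 on the log2 scale (SE 0.14, 95% interval -2.05 to -1.43, adjusted p = 0.000182), 3.34-fold lower on the deposited scale. Of all genes, it had the sixth most negative difference. With 16 taken off the linear values, the shRB mean was 0.224 of the shControl mean. Without any 1 shRB array TLL1 still passed, with adjusted p-values of at most 0.0101. Over the fits without 1 of the 5 arrays its difference ran from -1.77 to -1.71.

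The 250 bases before the RefSeq start of TLL1 (chr4:165872987-165873236, + strand, GRCh38.p14) are shown because TLL1 is the matrix gene that passed in every fit. They are written 5′ to 3′, and capitals mark the motif TATAAA, which stands far from the start.
TLL1: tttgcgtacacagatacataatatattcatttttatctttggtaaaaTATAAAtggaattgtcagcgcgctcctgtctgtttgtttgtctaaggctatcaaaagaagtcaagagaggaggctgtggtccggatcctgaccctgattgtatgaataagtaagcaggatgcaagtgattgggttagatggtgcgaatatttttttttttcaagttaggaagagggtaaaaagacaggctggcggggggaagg
This stretch is rich in A and T. Its G and C content is 40.4%, where the median over 22199 promoter windows of protein-coding genes is 62%, and it holds 6 CpG pairs, where the median is 16. The windows of MMP8, MMP10, MMP26 and MMP27, which did not pass, have a lower G and C content, 32.8% to 38.8%.

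The relatives of TLL1 did not pass the test on all 5 arrays. BMP1, the procollagen C-proteinase that gave the family its name, had log2 intensities of 5.45, 5.85 and 5.79 in shRB and 5.91 and 6.62 in shControl. The groups did not overlap, but shControl replicate 1 lay close to the nearest shRB array, and the difference of -0.57 (SE 0.21) did not pass (adjusted p = 0.197). It was -0.92 without that array and -0.21 without shControl replicate 2. TLL2, tolloid-like 2, had log2 intensities of 4.51, 4.31 and 4.35 in shRB and 4.04 and 4.0 in shControl. Both shControl values lie at or near the floor, so a fold cannot be given, and the difference of 0.37 (SE 0.15) did not pass (adjusted p = 0.218).

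The 4 thrombospondins included a gene that fell and a gene that rose. THBS1, a matricellular glycoprotein that inhibits angiogenesis and can activate latent TGF-beta, had log2 intensities of 7.57, 7.65 and 7.20 in shRB and 8.51 and 8.66 in shControl. Every shRB array was lower than both shControl arrays, and the smallest gap between the groups was wider than the range within either. It averaged 7.47 ± 0.24 in shRB cells (SD, n = 3) against 8.58 ± 0.11 in shControl cells (SD, n = 2), a log2 difference of -1.11 (SE 0.17, 95% interval -1.48 to -0.73, adjusted p = 0.0139) or 2.16-fold lower. THBS1 differed by -1.19 without shControl replicate 1 and by -1.03 without shControl replicate 2. Without shRB replicate 1 it missed the threshold (-1.16, adjusted p = 0.0963), as it did without shRB replicate 2 (-1.20, 0.0712) or 3 (-0.97, 0.113).

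THBS3, a thrombospondin of the pentameric branch found in cartilage and tendon, moved the other way. Its log2 intensities were 5.76, 5.98 and 5.68 in shRB and 5.10 and 4.57 in shControl. The groups did not overlap, and the shControl arrays differed from each other more than the shRB arrays did. It averaged 5.81 ± 0.16 in shRB cells (SD, n = 3) against 4.84 ± 0.37 in shControl cells (SD, n = 2), a log2 difference of 0.97 (SE 0.18, 95% interval 0.56 to 1.37, adjusted p = 0.034) or 1.96-fold higher. With 16 taken off, the linear means were 40.2 in shRB and 13.1 in shControl, 3.07-fold higher. THBS3 differed by 1.23 without shControl replicate 1 and by 0.70 without shControl replicate 2. Without shRB replicate 1 it missed the threshold (0.99, adjusted p = 0.179), as it did without shRB replicate 2 (0.88, 0.188) or 3 (1.03, 0.196). In the RefSeq annotation MTX1, a mitochondrial import gene, overlaps THBS3. MTX1 differed by 0.32 (SE 0.14, adjusted p = 0.267), and FSIP1, which overlaps THBS1, by 0.14 (adjusted p = 0.673). The table used gives no strand for the probe sets, so a share of these genes in the signal was not tested.

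The other thrombospondins did not pass. THBS2, a close relative of THBS1, had log2 intensities of 4.72, 4.46 and 4.67 in shRB and 4.71 and 4.39 in shControl, which overlap (shRB minus shControl 0.06, adjusted p = 0.877). THBS4, of the same branch as THBS3, had 4.67, 4.85 and 4.82 in shRB and 4.61 and 4.65 in shControl. Its arrays did not overlap, but the difference of 0.15 (SE 0.15) did not pass (adjusted p = 0.635). COMP, the cartilage thrombospondin that lacks the family symbol, was looked up after the family's values were seen. It had log2 intensities of 6.20, 6.20 and 6.01 in shRB and 6.52 and 6.81 in shControl (shRB minus shControl -0.53, adjusted p = 0.122). CD47, a receptor of THBS1 looked up in the same way, had means of 7.50 in shRB and 7.79 in shControl (shRB minus shControl -0.29, adjusted p = 0.36).

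PXDN, peroxidasin, fell in shRB. The enzyme makes the sulfilimine cross-links of basement membrane collagen IV. Its log2 intensities were 4.84, 4.83 and 4.78 in shRB and 6.16 and 5.73 in shControl. The 3 shRB arrays were nearly equal and lay well below both shControl arrays, which differed from each other by more. It averaged 4.82 ± 0.03 in shRB cells (SD, n = 3) against 5.94 ± 0.31 in shControl cells (SD, n = 2), a log2 difference of -1.13 (SE 0.16, 95% interval -1.49 to -0.77, adjusted p = 0.0102) or 2.18-fold lower. With 16 taken off, the linear means were 12.2 in shRB and 46.2 in shControl, 3.80-fold lower. PXDN differed by -0.91 without shControl replicate 1 and by -1.34 without shControl replicate 2. With 1 shControl array left, the spread within a group is seen in shRB alone, where that of PXDN was the smaller. Without shRB replicate 1 it missed the threshold (-1.14, adjusted p = 0.0963), as it did without shRB replicate 2 (-1.13, 0.0841) or 3 (-1.11, 0.127).

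RELN, reelin, a large secreted glycoprotein best known for guiding migrating neurons, fell in shRB. Its log2 intensities were 4.88, 4.91 and 4.94 in shRB and 6.04 and 5.73 in shControl. Again the shRB arrays were nearly equal and did not overlap the shControl arrays. It averaged 4.91 ± 0.03 in shRB cells (SD, n = 3) against 5.88 ± 0.22 in shControl cells (SD, n = 2), a log2 difference of -0.97 (SE 0.15, 95% interval -1.31 to -0.63, adjusted p = 0.0153) or 1.96-fold lower. With 16 taken off, the linear means were 14.1 in shRB and 43.3 in shControl, 3.08-fold lower. RELN differed by -0.82 without shControl replicate 1 and by -1.13 without shControl replicate 2. Without shRB replicate 1 it missed the threshold (-0.96, adjusted p = 0.119), as it did without shRB replicate 2 (-0.97, 0.113) or 3 (-0.99, 0.135).

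**Figure D3:**
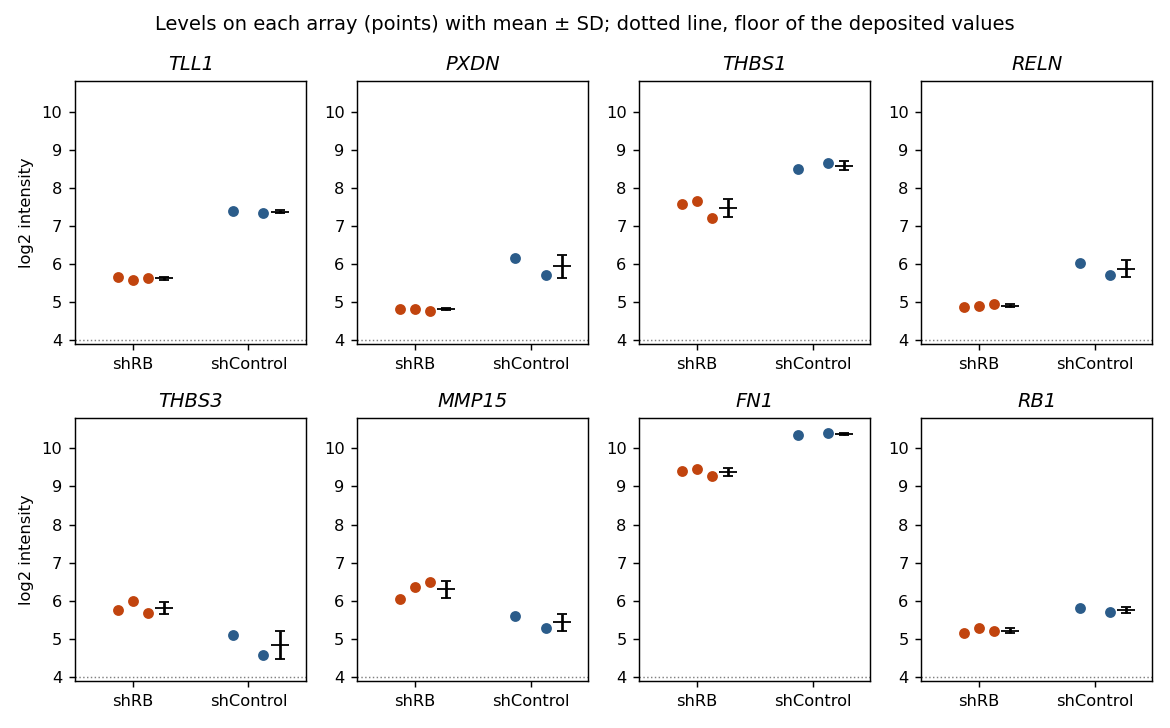
Log2 intensity (y axis) on each array for the 6 matrix genes past the threshold, for FN1 and for RB1, with shRB (3 arrays, red) left of shControl (2 arrays, blue) and mean ± SD in black. In every panel the points of the groups do not overlap, and the dotted line marks the floor at 4.

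The matrix metalloproteinases gave 1 gene past the threshold of 20 (5%), where 1.07% of all genes passed. MMP15, a membrane-type MMP anchored at the cell surface, rose in shRB. Its log2 intensities were 6.05, 6.37 and 6.49 in shRB and 5.59 and 5.28 in shControl. All shRB arrays were above both shControl arrays, and the spread within the groups was alike. It averaged 6.30 ± 0.23 in shRB cells (SD, n = 3) against 5.44 ± 0.22 in shControl cells (SD, n = 2), a log2 difference of 0.87 (SE 0.18, 95% interval 0.48 to 1.25, adjusted p = 0.0457) or 1.82-fold higher. MMP15 differed by 1.02 without shControl replicate 1 and by 0.71 without shControl replicate 2. Without shRB replicate 1 it missed the threshold (0.99, adjusted p = 0.111), as it did without shRB replicate 2 (0.83, 0.196) or 3 (0.77, 0.24). Its neighbour CFAP20 differed by 0.55 (SE 0.15, adjusted p = 0.0976) and USB1 on the other side by -0.04 (adjusted p = 0.919).

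Of the 6 membrane-type MMPs, MMP15 was the 1 that passed, and the group had 2 positive and 4 negative differences and a median of -0.14. MMP16, an activator of gelatinase, had log2 intensities of 6.87, 6.85 and 6.54 in shRB and 6.58 and 6.31 in shControl. The groups overlapped, and the difference of 0.30 (SE 0.17) did not pass (adjusted p = 0.363). MMP25, which is held by a lipid anchor, had 5.94, 6.32 and 6.02 in shRB and 6.19 and 6.41 in shControl, again overlapping (shRB minus shControl -0.20, adjusted p = 0.559). Its other probe sets differed by 0.31 and -0.52, so the probe sets of MMP25 disagree in sign. MMP14, the collagenolytic member, stood at 4.40 ± 0.07 in shRB cells (SD, n = 3) against 4.64 ± 0.51 in shControl cells (SD, n = 2), MMP17 at 4.88 ± 0.26 and 4.96 ± 0.14, and MMP24 at 5.75 ± 0.22 and 6.06 ± 0.49. MMP14, MMP17 and MMP24 did not pass, with adjusted p-values of 0.469 to 0.84, and each turned sign when 1 of the arrays was left out.

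Among the secreted and other MMPs the larger differences went both ways. MMP23B, a membrane-anchored MMP, had log2 intensities of 4.35, 4.09 and 4.25 in shRB and 4.91 and 4.57 in shControl. The groups did not overlap, and with a difference of -0.51 (SE 0.16, adjusted p = 0.144) it came nearest to the threshold of the 33 genes that missed it. Its near-identical pseudogene MMP23A had 6.15, 5.77 and 5.91 in shRB and 6.12 and 6.41 in shControl (shRB minus shControl -0.33, adjusted p = 0.333), and signal of the pair may be shared. MMP27 had 4.14, 4.29 and 4.66 in shRB and 4.56 and 5.06 in shControl, which overlap (shRB minus shControl -0.44, adjusted p = 0.27). MMP21, which takes part in left-right patterning of the embryo, had 4.65, 5.13 and 4.60 in shRB and 4.29 and 4.38 in shControl. Its shRB arrays were all higher, but the difference of 0.46 (SE 0.18) did not pass (adjusted p = 0.217). MMP11, or stromelysin 3, stood at 5.06 ± 0.15 in shRB and 4.66 ± 0.01 in shControl (shRB minus shControl 0.40, adjusted p = 0.2), and MMP19 at 4.89 ± 0.16 and 4.53 ± 0.46 (0.37, adjusted p = 0.361). Leaving out 1 shControl array gives 0.04 or 0.69 for MMP19.

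The MMP gene cluster on the long arm of chromosome 11 was dim throughout. Its 7 measured members, the collagenases MMP1, MMP8 and MMP13, the stromelysin MMP10, the macrophage elastase MMP12, the enamel protease MMP20 and MMP27, had mean log2 intensities of 4.19 to 5.07. Their differences ran from -0.44 to 0.10 with a median of 0.01. The arrays of the groups overlapped for all 7, 1 of which (MMP27) had an unadjusted p under 0.05 by limma. Of all genes, 36% did not overlap and 18.1% had such a p. MMP13 had 4.19 ± 0.08 in shRB cells (SD, n = 3) against 4.18 ± 0.08 in shControl cells (SD, n = 2), with a 95% interval of the difference from -0.32 to 0.33. MMP26 and MMP28, which lie outside the cluster, differed by 0.06 (adjusted p = 0.882) and 0.12 (adjusted p = 0.735).

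Of the TIMPs, the natural inhibitors of MMPs, 0 of 4 passed by limma and 0 had an unadjusted p under 0.05. Shares over all genes were 1.07% and 18.1%. All 4 differences were positive on the 5 arrays, but those of TIMP1, TIMP2 and TIMP3 turned negative in 1 or more of the 12 alternative fits. TIMP4 had log2 intensities of 4.66, 4.71 and 4.52 in shRB and 4.36 and 4.32 in shControl. Its groups did not overlap, but the difference of 0.29 (SE 0.15) did not pass (adjusted p = 0.323). TIMP3, which binds to the matrix, had 5.00, 5.11 and 4.90 in shRB and 4.65 and 4.96 in shControl, which overlap (shRB minus shControl 0.20, adjusted p = 0.546), and its other probe set differed by -0.24. TIMP1 had 4.32, 4.48 and 4.66 in shRB and 4.04 and 4.61 in shControl (shRB minus shControl 0.16, adjusted p = 0.707). TIMP2, which also helps to activate gelatinase, had 5.03, 5.23 and 5.16 in shRB and 4.52 and 5.68 in shControl. The shControl arrays of TIMP2 lay on either side of all shRB arrays, so its difference of 0.04 (SE 0.27, 95% interval -0.55 to 0.62, adjusted p = 0.959) has no stable sign. Without shControl replicate 1 it was -0.54 (adjusted p = 0.103).

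The lysyl oxidases, copper enzymes that cross-link collagen and elastin, gave 0 of 5 past the threshold by limma and 0 with an unadjusted p under 0.05. All genes tested gave 1.07% and 18.1%. LOX had log2 intensities of 5.35, 4.96 and 4.84 in shRB and 4.43 and 4.95 in shControl, with overlap (shRB minus shControl 0.36, adjusted p = 0.376). LOXL4 had 5.12, 5.38 and 5.09 in shRB and 4.89 and 4.89 in shControl, with no overlap (shRB minus shControl 0.31, SE 0.15, adjusted p = 0.322). LOXL3 had 4.84, 4.45 and 4.42 in shRB and 4.0 and 4.54 in shControl (shRB minus shControl 0.30, adjusted p = 0.456). The shControl arrays of LOX and LOXL3 differ enough that leaving out 1 of them gives 0.10 or 0.62 for LOX and 0.03 or 0.57 for LOXL3. LOXL2, which acts on basement membrane collagen, had 4.75, 4.81 and 4.84 in shRB and 5.04 and 4.96 in shControl, all shRB arrays lower (shRB minus shControl -0.21, adjusted p = 0.482). LOXL1, needed for elastic fibres, had 5.41, 5.30 and 5.37 in shRB and 5.43 and 5.62 in shControl, again all lower (shRB minus shControl -0.16, adjusted p = 0.592). COL26A1, a collagen alpha chain, had 6.70, 6.62 and 6.40 in shRB and 6.75 and 6.99 in shControl. Its groups did not overlap, but the difference of -0.30 (SE 0.16, 95% interval -0.65 to 0.05) did not pass (adjusted p = 0.354).

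The 250 bases before the RefSeq starts of the other genes past the threshold are shown so that genes that moved the same way can be read side by side. All are from GRCh38.p14 and written 5′ to 3′ along the gene's strand. Capitals mark matches on either strand to the Sp factor box GGGCGG, to TATAAA, to CACCTG, which SNAI and ZEB repressors bind, and to the E2F words TTTCCCGC, TTTCGCGC, TTTGCCGC and TTTGGCGC. Neighbouring matches can overlap. The first 3 belong to genes that fell, THBS1 (chr15:39580829-39581078, + strand), PXDN (chr2:1744516-1744765, - strand) and RELN (chr7:103989659-103989908, - strand).
THBS1: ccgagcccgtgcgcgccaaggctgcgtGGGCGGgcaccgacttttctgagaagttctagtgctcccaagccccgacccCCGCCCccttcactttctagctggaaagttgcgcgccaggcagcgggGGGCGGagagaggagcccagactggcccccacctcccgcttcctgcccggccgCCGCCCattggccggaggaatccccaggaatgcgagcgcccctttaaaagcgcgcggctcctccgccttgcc
PXDN: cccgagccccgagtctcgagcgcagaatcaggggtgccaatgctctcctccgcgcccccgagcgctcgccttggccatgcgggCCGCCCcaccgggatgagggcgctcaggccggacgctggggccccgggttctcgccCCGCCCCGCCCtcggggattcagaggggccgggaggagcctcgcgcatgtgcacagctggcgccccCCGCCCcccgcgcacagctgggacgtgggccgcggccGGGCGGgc
RELN: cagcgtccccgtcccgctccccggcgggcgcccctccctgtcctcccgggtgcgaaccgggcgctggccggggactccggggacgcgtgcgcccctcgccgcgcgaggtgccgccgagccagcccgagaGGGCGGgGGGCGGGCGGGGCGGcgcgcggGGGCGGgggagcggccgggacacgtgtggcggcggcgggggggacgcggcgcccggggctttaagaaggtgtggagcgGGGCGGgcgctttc
The genes that rose follow, MMP15 (chr16:58025504-58025753, + strand) and THBS3, for which RefSeq gives 2 starts on the - strand, A (chr1:155209179-155209428) and B (chr1:155207898-155208147).
MMP15: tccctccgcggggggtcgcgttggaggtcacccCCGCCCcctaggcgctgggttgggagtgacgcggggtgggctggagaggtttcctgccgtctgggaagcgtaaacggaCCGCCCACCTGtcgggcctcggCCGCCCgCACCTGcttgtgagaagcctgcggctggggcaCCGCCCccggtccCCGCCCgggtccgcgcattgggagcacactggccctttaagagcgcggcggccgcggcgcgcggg
THBS3 start A: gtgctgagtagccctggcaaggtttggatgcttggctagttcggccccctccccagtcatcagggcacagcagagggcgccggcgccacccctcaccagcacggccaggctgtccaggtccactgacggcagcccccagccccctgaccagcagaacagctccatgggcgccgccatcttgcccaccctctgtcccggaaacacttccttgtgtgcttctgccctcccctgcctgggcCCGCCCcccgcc
THBS3 start B: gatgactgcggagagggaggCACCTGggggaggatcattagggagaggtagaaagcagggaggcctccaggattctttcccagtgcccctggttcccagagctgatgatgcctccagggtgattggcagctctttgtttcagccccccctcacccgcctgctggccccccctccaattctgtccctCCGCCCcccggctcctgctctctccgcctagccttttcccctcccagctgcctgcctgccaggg

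Windows rich in G and C stood before genes that fell and genes that rose. The G and C content was 69.6% for THBS1, 78.4% for PXDN, 83.2% for RELN and 74.8% for MMP15. It was 68.8% and 64.4% for THBS3 starts A and B, and all were above that of TLL1. Start B lies close to the median of 62%. CpG pairs numbered 24 for THBS1, 32 for PXDN, 43 for RELN and 31 for MMP15. The THBS3 starts A and B held 11 and 5, against 6 for TLL1. The Sp box occurred 4 times for THBS1, 5 for PXDN, 6 for RELN and 5 for MMP15, and 1 time at each THBS3 start, and it occurs in 53.7% of the promoters of protein-coding genes. CACCTG occurred 2 times for MMP15 and 1 time at THBS3 start B, and 17% of those promoters hold it. TATAAA, held by 9% of promoters, occurred in that of TLL1 only among these 7 windows. It is not particular to TLL1 among the 32 windows of the 27 matrix genes in the RefSeq table. Of these, 7 (21.9%) held it, also those of MMP8, MMP10, MMP20, MMP21, MMP26 and THBS2, which did not pass. An E2F word was in 0 of the 7 windows shown and in 0 of the 32, where 3.48% of promoters have one. A match is a stretch of letters and not a binding site.

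Beyond the families, 165 of 249 listed companion genes of the matrix pathway were measured. FN1, fibronectin, which cells assemble into fibrils through integrins, was the 1 companion gene past the threshold (0.606%, against 1.07% of all genes). Its log2 intensities were 9.40, 9.46 and 9.26 in shRB and 10.35 and 10.39 in shControl, so all shRB arrays were lower. It averaged 9.37 ± 0.10 in shRB cells (SD, n = 3) against 10.37 ± 0.03 in shControl cells (SD, n = 2), a log2 difference of -1.0 (SE 0.15, adjusted p = 0.0103). FN1 differed by -1.02 without shControl replicate 1 and by -0.98 without shControl replicate 2. Without shRB replicate 1 it missed the threshold (-1.01, adjusted p = 0.0963), as it did without shRB replicate 2 (-1.04, 0.0744) or 3 (-0.94, 0.113). Over the 165 genes the median log2 difference was -0.03, with 77 positive and 88 negative. An unadjusted p under 0.05 by limma was seen for 28 of them (17%), against 18.1% of all genes.

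Of 62 glycoprotein and proteoglycan genes, 1 fell past the threshold (1.61%), which was FN1, and 0 rose, where 1.07% of all genes passed. GPC1, a glypican with heparan sulfate chains, had log2 intensities of 6.40, 5.98 and 6.36 in shRB and 4.64 and 5.83 in shControl. The shControl arrays of GPC1 differed by over 1 log2 unit, and the difference of 1.01 (SE 0.28) did not pass (adjusted p = 0.107). It was 1.60 without shControl replicate 2. Leaving out shControl replicate 1 instead gave 0.41, and the mean of its 2 probe sets gave 0.50 (adjusted p = 0.269). By limma 0 of the 11 measured genes of procollagen processing passed, and 0 had an unadjusted p under 0.05. These shares were 1.07% and 18.1% over all genes, and the 11 genes differed by -0.29 to 0.23. Among them P3H4, a partner of the collagen hydroxylases, stood at -0.29 (adjusted p = 0.4) and PCOLCE, which enhances the C-proteinases of the BMP1 kind, at -0.25 (adjusted p = 0.438). That list also holds TLR2, an immune receptor with no such role, which differed by 0.02 (adjusted p = 0.956).

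By limma 0 of 16 genes listed with the ADAM proteases passed, and 4 (25%), RECK among them, had an unadjusted p under 0.05. Those shares were 1.07% and 18.1% over all genes. The measured genes of that list are ADAMs, ADAMTS-like genes, RECK and BSG, or basigin, and it has no measured ADAMTS protease. ADAM28, a cell surface protease, had log2 intensities of 5.11, 4.97 and 4.94 in shRB and 4.08 and 4.64 in shControl (shRB minus shControl 0.65, adjusted p = 0.107). It was 0.93 without shControl replicate 2 and 0.37 without shControl replicate 1. RECK, a membrane-anchored MMP inhibitor listed with them, had 4.72, 4.87 and 5.00 in shRB and 4.25 and 4.30 in shControl, with no overlap (shRB minus shControl 0.59, adjusted p = 0.0933). The list of plasminogen system genes and cathepsins also holds hyaluronan and heparan sulfate enzymes. Of its 17 genes 0 passed by limma and 3 (17.6%) had an unadjusted p under 0.05. HPSE, the heparanase, stood at 0.52 (adjusted p = 0.119) and HYAL2, a hyaluronidase, at 0.40 (adjusted p = 0.245).

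In the focal adhesion list, which also holds membrane receptors and tetraspanins, 0 of 37 genes passed by limma and 5 (13.5%) had an unadjusted p under 0.05. Among all genes 1.07% passed and 18.1% had such a p. SRC, the kinase, had log2 intensities of 6.48, 6.44 and 6.29 in shRB and 6.98 and 7.04 in shControl. All shRB arrays of SRC were lower, and the difference of -0.61 (SE 0.15) did not pass (adjusted p = 0.0792). TLN1, talin, which ties integrins to actin, had 6.81, 6.77 and 6.56 in shRB and 7.14 and 7.37 in shControl (shRB minus shControl -0.54, adjusted p = 0.112). In the TGF-beta list 0 of 22 passed and 6 (27.3%) had an unadjusted p under 0.05 by limma, where 18.1% of all genes did. BAMBI, a decoy receptor, had 7.35, 7.24 and 7.52 in shRB and 6.77 and 6.76 in shControl, with no overlap (shRB minus shControl 0.60, SE 0.15, adjusted p = 0.0862). SMAD7, an inhibitory SMAD, stood at 0.52 (adjusted p = 0.135).

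**Figure D4:**
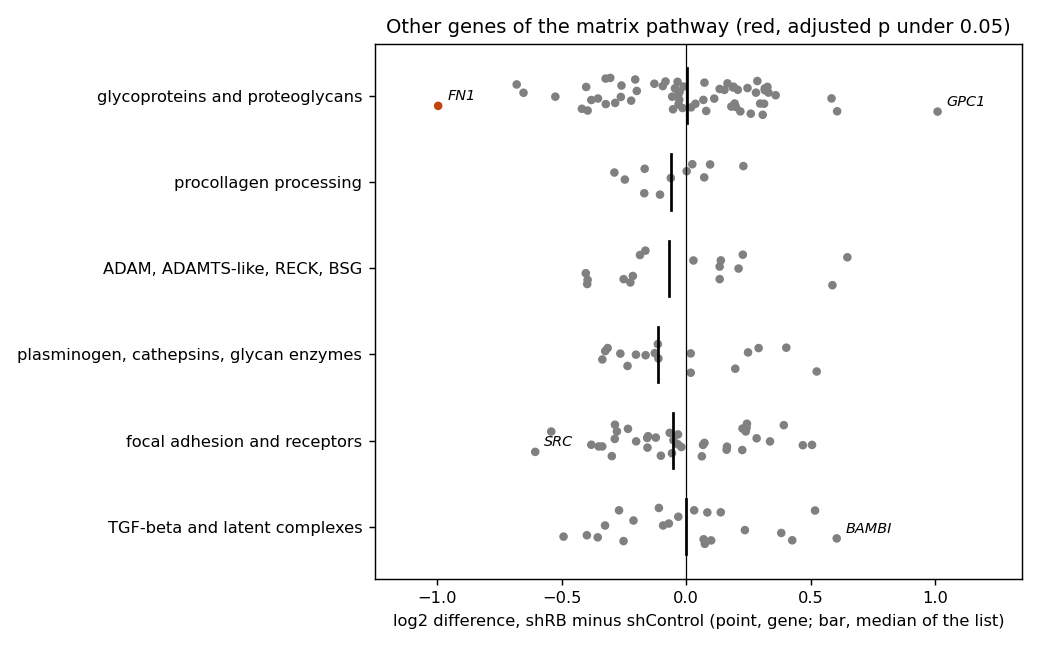
Log2 difference (x axis, shRB minus shControl) of the 165 measured companion genes, by list (y axis), as points with the median of each list as a bar. FN1, in red, is the 1 gene past the threshold, and the list medians lie between -0.11 and 0.00.

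The matrix genes past the threshold differed in how many of the alternative fits they passed. TLL1 passed in 12 of 12 alternative fits, with a largest adjusted p of 0.0291. PXDN, RELN and THBS1 passed in 7 of 12 each, with largest adjusted p-values of 0.127, 0.135 and 0.125. THBS3 and MMP15 passed in 5 of 12 each, with largest adjusted p-values of 0.196 and 0.244. All 6 genes kept their sign in all 12 fits. The fits are not 12 separate tests, since the replicate block gives the same differences as leaving out shRB replicate 3. In the fits without 1 shControl array, the spread within a group is seen in shRB alone. The pass of PXDN, RELN and THBS3 with dim genes left out is no separate support. They meet that filter only through the group in which they are high. Without any 1 of the shRB arrays TLL1 was the 1 matrix gene past the threshold, and the share of all genes that passed was then 0.149% to 0.189%.

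**Figure D5:**
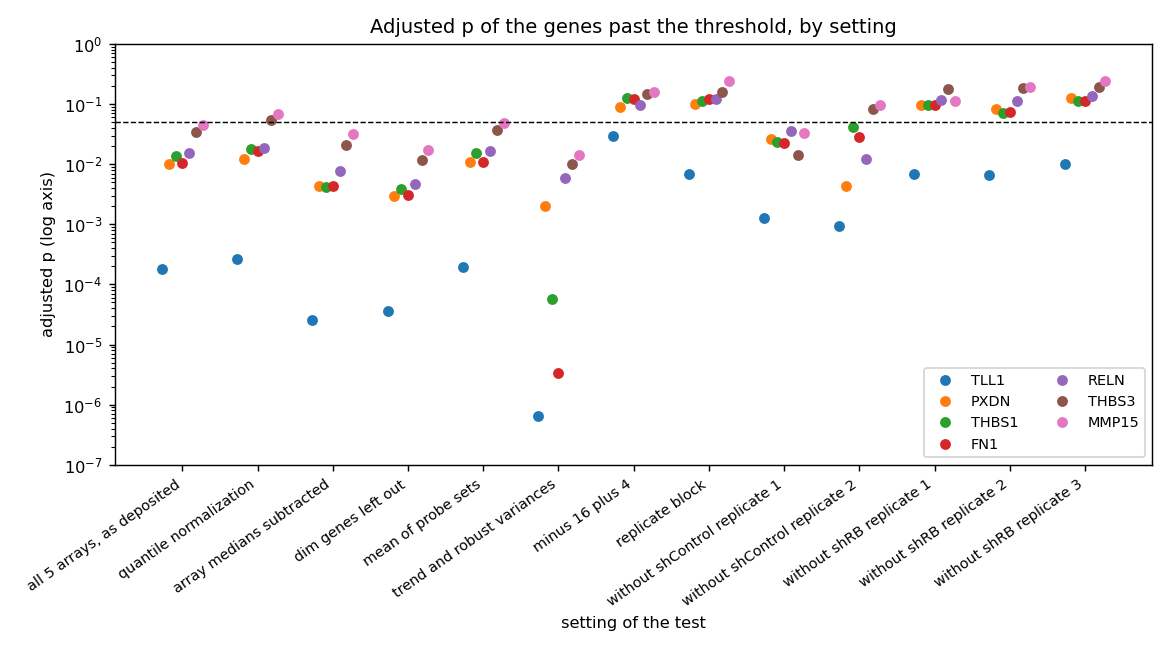
Adjusted p (y axis, log axis) of the 6 matrix genes and FN1 in the test on all 5 arrays and in each of 12 alternative settings (x axis), with the threshold of 0.05 dashed. TLL1 lies below the line in all settings, and the other genes lie above it when 16 is subtracted and 4 added, with the replicate block and without any 1 shRB array.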

How the data were processed

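RNA of irradiated LNCaP cells, 3 shRB and 2 shControl samples, was labelled with biotin and hybridised to 1-colour whole-transcript arrays, per the labels' protocols. The deposited values are linear intensities for 44607 probe sets. Summarisation, background correction and normalization were not given in the sources at hand. The intensities deposited by the authors have no value below 16, which points to an added constant. The number of arrays limits the precision.

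Deposited intensities were taken to log2 with no further normalization. The platform annotation gave 15835 probe sets 1 gene symbol, 0 several and 28772 none. All 15835 matched RefSeq (GRCh38.p14) by Entrez ID, which updated the symbols. Keeping the probe set with the highest mean per gene left 14812 genes, 651 of them with several probe sets. The shRB and shControl log2 values were set against each other by lmFit and eBayes of limma (version 3.58.1, R version 4.3.3, two-sided), with Benjamini-Hochberg adjustment over all genes and a threshold of 0.05. The fit was tested on simulated data with normal noise of equal spread in both groups and no floor. That does not show how it behaves with unequal spread or near a floor.

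The genes and lists were chosen with earlier results of these data known. Named by rule were RB1, every gene of the families past the threshold, per family up to 4 with the largest difference and up to 3 with the highest level, and in each companion list those past the threshold and up to 2 with the largest difference. MMP1, MMP8, MMP10 to MMP14, MMP17, MMP19, MMP20, MMP24, MMP26 and MMP28 are named outside that rule to account for all 39 genes. TLR2, COMP, CD47, KRT15, VWF, EMCN and the neighbouring genes were also chosen after their values were seen. Promoter sequences are RefSeq's (GRCh38.p14), available for 27 of the 39 genes. Normalization, a filter on dim genes, the probe set rule, the variance model, removal of the constant, a replicate block and leaving out each array were tried as alternatives.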

Additional observations from a re-analysis of the deposited data

How the results depend on the processing

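On all 5 arrays 159 genes passed (103 higher and 56 lower in shRB), 6 of them matrix genes and 1 a companion gene. Quantile normalization gave 122 genes (69 higher, 53 lower), array medians subtracted 227 (137 and 90) and the mean of probe sets 139 (88 and 51). More genes passed with dim genes left out, 385 of the 7406 then tested (267 and 118), and with trend and robust variances, 426 (260 and 166). In both of these 6 matrix genes passed and 4 companion genes did. PXDN, RELN and THBS3 meet the filter on dim genes only through the group in which they are high. With 16 subtracted and 4 added, 13 genes passed (4 higher, 9 lower), with 1 matrix gene, TLL1, and 0 companion genes by limma (31 at an unadjusted p under 0.05). The cause of these changes was not tested. The labels do not say whether same-numbered samples were paired. Deviations of same-numbered arrays correlated at -0.021 and 0.046. With 2 shControl arrays these values are not independent and cannot settle it. The replicate block left 24 genes (8 and 16), with 1 matrix gene, TLL1, and 0 companion genes (20 at an unadjusted p under 0.05). Replicate 3 has only an shRB array, so the block takes up that array. It gives the same differences as leaving out shRB replicate 3, and the same sign turns are counted in both fits. Leaving out 1 array gave 22 to 411 genes, 1 to 7 matrix genes and 0 to 4 companion genes. Without shRB replicate 2 there were 22 genes (9 and 13), without shRB replicate 3 also 22 (8 and 14) and without shRB replicate 1 28 (12 and 16), each time with 1 matrix gene, TLL1, and 0 companion genes (21 to 26 at an unadjusted p under 0.05 by limma). The high end of the first 2 ranges belongs to the fit without shControl replicate 1 (235 and 176), whose absence added BMP1. The high end for companion genes came without shControl replicate 2. With 1 shControl array left, its spread is assumed to equal that of shRB. Quantile normalization left 4 matrix genes, without THBS3 (adjusted p = 0.0543) and MMP15 (0.0678). Of the 39 matrix genes, 13 turned sign in 33 of 442 values, 379 values kept sign and side of the threshold, 29 lost the call and 1 gained it. Over the fits without 1 array, differences spanned 0 for MMP1 (-0.27 to 0.28), MMP8 (-0.22 to 0.030), MMP12 (-0.23 to 0.25), MMP13 (-0.052 to 0.064), MMP14 (-0.60 to 0.12), MMP17 (-0.22 to 0.027), MMP20 (-0.20 to 0.14), MMP24 (-0.66 to 0.031), MMP26 (-0.15 to 0.27), THBS2 (-0.10 to 0.22), TIMP1 (-0.13 to 0.44) and TIMP2 (-0.54 to 0.62). TIMP3 was -0.019 with the mean of probe sets. Quantile normalization gave -0.029 for MMP1, -0.037 for MMP12 and -0.045 for MMP13, and array medians subtracted gave -0.0085, -0.0045 and -0.0086 for these. The replicate block gave -0.060 for MMP12, -0.035 for MMP13, 0.027 for MMP17, 0.057 for MMP20 and 0.030 for MMP8. Leaving out 1 shControl array turned the sign or moved the difference by over 1.5 times for 24 of the 39 genes, 0 of them among the 6 past the threshold. RB1 passed limma's test with dim genes left out (adjusted p = 0.0489). It meets that filter only through shControl (mean 5.76), since its shRB mean (5.21) lies below the median gene (5.25). Signals near the floor limit what can be seen of the dim genes.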
